A study of Mus musculus with 16 samples.

Results

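Interferon-stimulated genes are the genes that cells switch on when an interferon binds its receptor, and 39 of them were followed here across thymic epithelium of mice with and without Psmb11, the catalytic subunit that marks the thymoproteasome of cortical epithelial cells. The 39 genes were taken by name, with no threshold on their values, and all 39 were found among the 23420 genes of the count table and passed the low-count filter in every comparison. RNA sequencing covered 16 libraries in 6 groups: Psmb11-/- (KO) and Psmb11+/+ (WT) cortical thymic epithelial cells (cTEC, 2 libraries each), KO and WT mTEChi (3 each), and KO and WT mTEClo (3 each). mTEChi and mTEClo are the mature and the less mature fractions of medullary thymic epithelial cells. The cells were sorted from digested thymus as CD45-negative, EpCAM-positive cells and parted into cortex and medulla by Ly51 and the lectin UEA1. All groups share the strain label C57BL/6-derived BAC, and how the KO allele was made is not given there. The sample labels and the series text give an age of 6 to 8 weeks and 11 thymi in all, whereas the preparation text speaks of 14 mice 7 days old, so the age is uncertain for every group alike. Nothing says which thymi went into which library, so p-values measure the spread between libraries.

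Type I interferons (the alpha family and Ifnb1) signal through Ifnar1 and Ifnar2, type III interferons (Ifnl2, Ifnl3) through Ifnlr1 and Il10rb, and interferon gamma through Ifngr1 and Ifngr2. Type I and III receptors lead to a complex with Stat2 and Irf9 that binds the interferon-stimulated response element, and Irf1 is a factor of the response to interferon gamma. The thymus is known for making interferons without infection, and mature medullary epithelium is one of the sources.

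The response element was looked for in the promoters of the 39 genes as GAAA, any 2 bases and GAAA again, on both strands, in the 250 bases before and 50 bases after each start in RefSeq's mouse promoters (GRCm38.p6). Of the 30 members with a promoter there, 17 held a match (56.7%), against 1079 of all 27025 genes (3.99%). The 4 stretches that follow, of 60 bases each, are those of the members named by rule in the contrasts of mTEChi with mTEClo or of KO with WT that hold a match before the start. They are written 5′ to 3′ on the strand of the gene, with the matches in capitals.
Ifit3 (chr19:34583365-34583424, plus strand): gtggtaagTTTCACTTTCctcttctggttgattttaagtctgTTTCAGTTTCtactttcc
Bst2 (chr8:71537565-71537624, minus strand): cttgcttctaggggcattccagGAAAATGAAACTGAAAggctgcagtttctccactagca
Rsad2 (chr12:26456538-26456597, minus strand): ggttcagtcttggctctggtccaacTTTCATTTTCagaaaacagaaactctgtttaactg
Irgm1 (chr11:48871421-48871480, minus strand): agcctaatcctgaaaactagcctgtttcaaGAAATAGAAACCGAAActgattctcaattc
Ifit3 held 2 separate matches on the opposite strand, Bst2 and Irgm1 each held 2 overlapping matches, and Rsad2 held 1. Members with a match are not the only ones that differed between populations. In WT mTEChi against WT mTEClo the median log2 fold change was -1.90 over the 17 members with a match. It was -1.42 over the 13 without and -2.06 over the 9 that have no promoter in RefSeq's set. These medians were not tested against each other. Ifi44, Irf7 and Xaf1, named further on, had no match in this window.

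All libraries were deep, with 64753610 to 146707262 reads counted in genes, and 3 counts stood for at most 0.0430 CPM (counts relative to library size, scaled by the trimmed mean of M values, TMM). Reads in no gene took 13.7% to 30.4% of the total, highest in cTEC KO 1. Psmb11 had 157 and 0 counts in KO cTEC, against 15214 and 12756 in WT cTEC, and 74 to 177 counts in the KO medullary libraries, against 598 to 1672 in the WT medullary ones. Epithelial, cortical and medullary markers followed the labels, except that the medullary gene Ccl21a was at 0 in every library and that KO cTEC held more of some medullary genes than WT cTEC. The 9 cortical markers, highest in cTEC, also summed to 1294 to 1415 CPM in mTEChi, against 489 to 603 CPM in mTEClo. The 4 epithelial markers summed to 3342 to 3713 CPM in mTEChi, against 4975.5 to 5555 CPM in mTEClo. The 2 KO cTEC libraries stood apart from each other: their log2 levels correlated at 0.941 over genes, against 0.987 or more for every other pair within a group, and 5757 genes in KO 1 and 8541 in KO 2 had 0 counts.

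Summed over the 39 genes, the 2 KO cTEC libraries held 8402 and 8439 CPM and the 2 WT cTEC libraries 9782 and 10178 CPM. mTEChi held 3262 to 3380 CPM in KO and 3236 to 3345 CPM in WT, and mTEClo held 10670 to 11281 CPM in KO and 10182 to 10744 CPM in WT. Every mTEChi library was thus far below every cTEC and mTEClo library in this sum. In bulk libraries such as these, fewer cells that express a gene and less RNA per cell cannot be told apart.

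**Figure D1:**
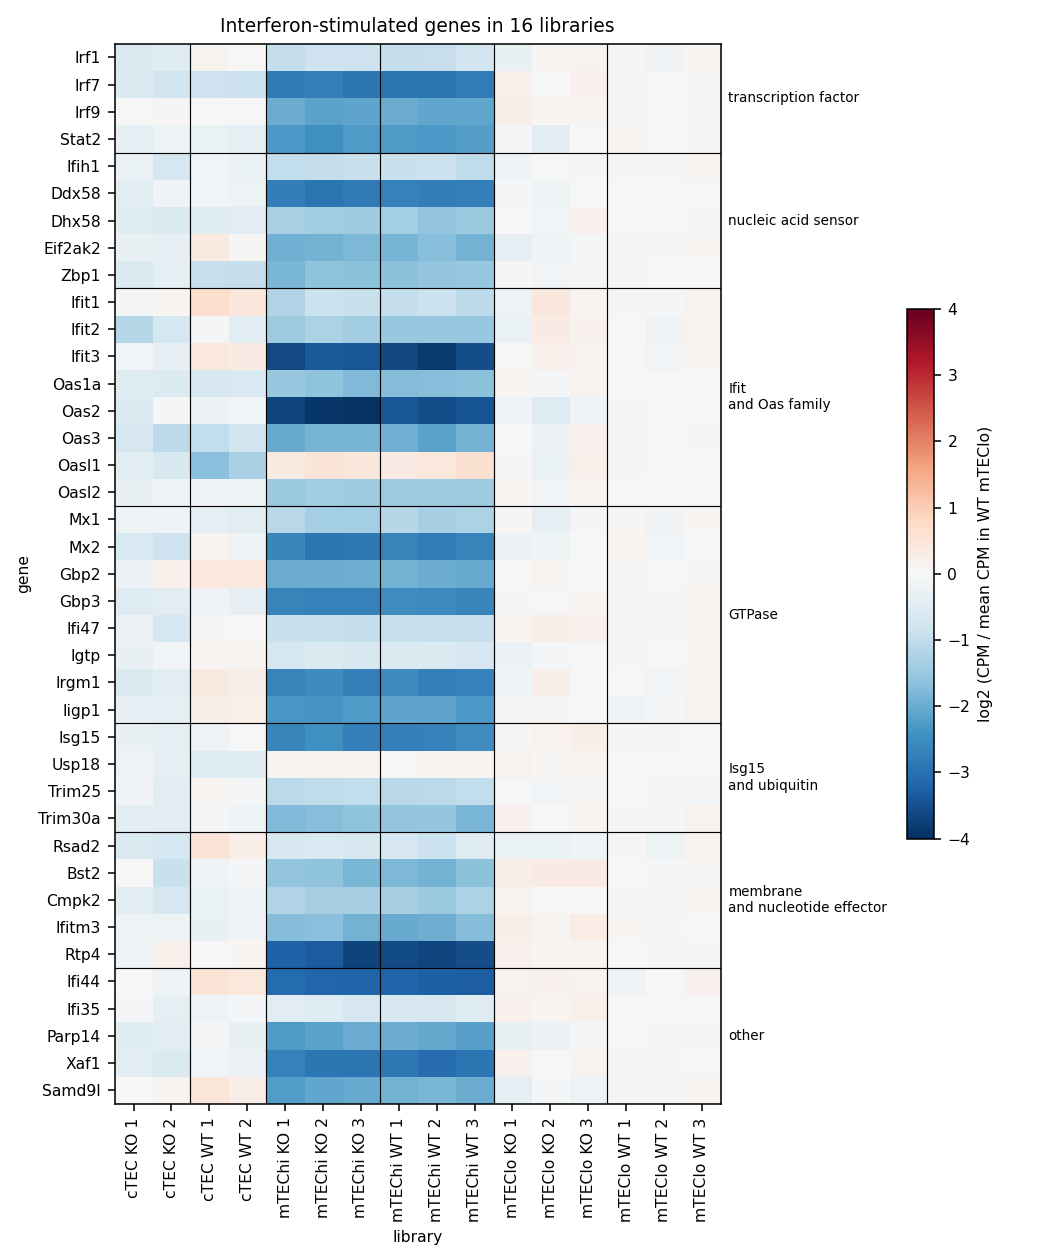
Each row is one of the 39 genes and each column one of the 16 libraries, coloured by the log2 of its CPM over the gene's mean in WT mTEClo, with genes ordered by role. The 6 mTEChi columns are below the WT mTEClo mean in 37 rows, Oasl1 and Usp18 being the exceptions.

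Levels between genes were compared on the deposited RPKM, which is per kilobase of gene. Ifitm3, which blocks virus entry at membranes, was the most abundant member in all 6 groups, at 1587 ± 205 RPKM in KO cTEC and 1563 ± 201 RPKM in WT cTEC (SD, n = 2 each), at 596 ± 59.1 RPKM in KO mTEChi and 529 ± 48.8 RPKM in WT mTEChi, and at 2117 ± 95.7 RPKM in KO mTEClo and 1777 ± 59.4 RPKM in WT mTEClo (SD, n = 3 each). In WT mTEClo it was followed by Oasl2, Irf7 and Isg15 at mean levels of 216, 207 and 204 RPKM, and the lowest member was Rsad2 at 11.8 RPKM. In WT mTEChi the second place was held by Usp18, at 127 RPKM, and Irf7 had the 11th place. The lowest group mean was that of Oas2 in KO mTEChi, at 1.96 RPKM.

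These genes differed widely between the medullary fractions. In WT mice 37 of the 39 were lower in mTEChi than in mTEClo and 1, Oasl1, was higher (edgeR quasi-likelihood test, Benjamini-Hochberg adjusted p under 0.05 over all genes tested). Over all 19256 genes tested the share called lower was 37.9% and the share called higher 42.9%, 80.9% in either direction. The median log2 fold change was -1.81 over the members and 0.056 over all genes. In KO mice, whose libraries are separate ones, again 37 were lower and 1 was higher, against 36.2% and 42.1% of all genes (78.3% in either direction), and the medians were -1.87 and 0.077. The same 37 genes and Oasl1 passed in both genotypes, and no member's log2 fold change differed by more than 0.29 between them. A level at least 2-fold lower was reached by 31 members in KO and 30 in WT, against 12.3% and 12.5% of all genes, and a level at least 4-fold lower by 14 in KO and 15 in WT, against 3.79% and 3.76%. The 3 mTEChi libraries all lay below the 3 mTEClo libraries for 37 members in each genotype and all above for 1 member in KO and 2 in WT. Over all genes that was the case for 38.5% below and 43.4% above in KO, and for 39.5% below and 44.1% above in WT.

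**Figure D2:**
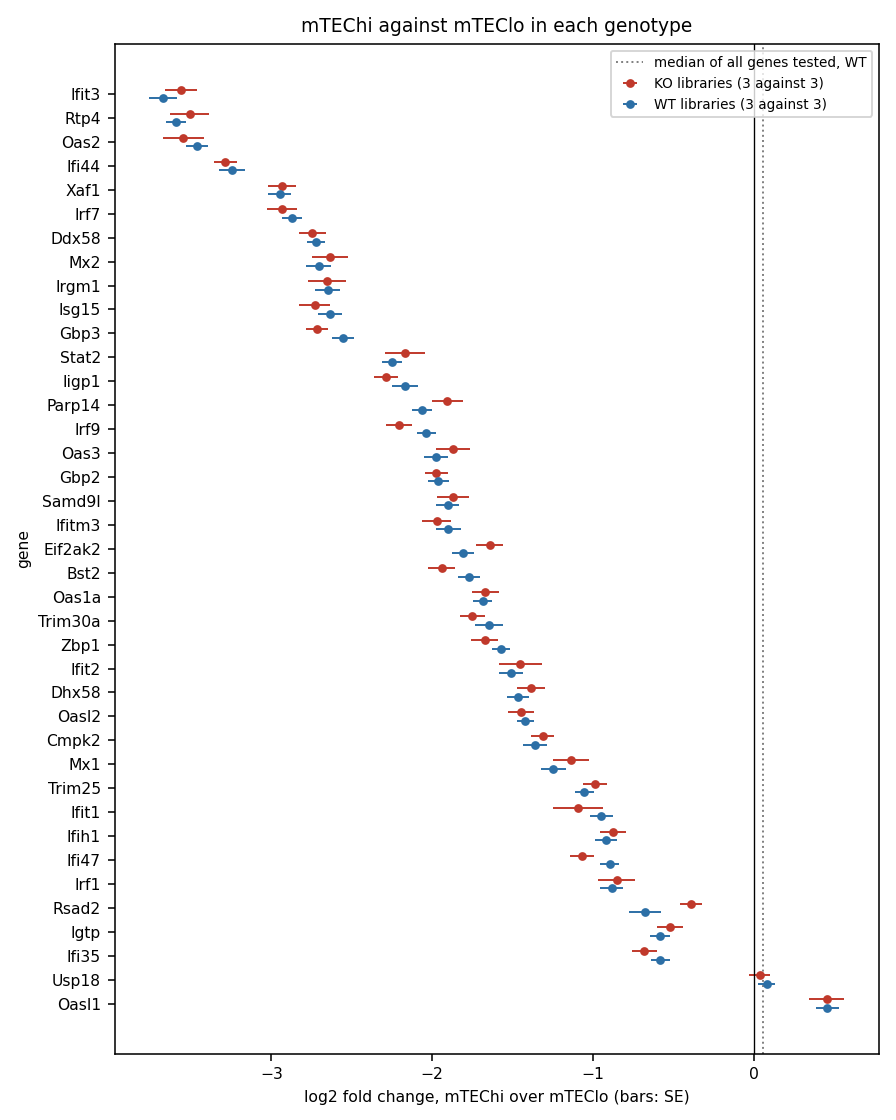
Log2 fold changes of mTEChi over mTEClo for the 39 genes, in KO libraries (red) and WT libraries (blue), with bars for the SE and 3 against 3 libraries in each. The genes run from Ifit3, at -3.56 in KO and -3.67 in WT, to Oasl1, at 0.46 in both, and the genotypes lie close together in every row.

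The transcription factors that carry the response were all 4 lower in mTEChi. Irf7, which drives further interferon genes, stood at 73.3, 77.7 and 68.6 CPM in KO mTEChi, against 603, 514 and 584 CPM in KO mTEClo. It stood at 68.5, 69.2 and 74.9 CPM in WT mTEChi, against 531, 526 and 501 CPM in WT mTEClo. No mTEChi library came near the lowest mTEClo library, and the log2 fold change was -2.94 (SE 0.09, adjusted p = 2.22e-09) in KO and -2.87 (SE 0.06, adjusted p = 2.29e-12) in WT. Stat2 and Irf9, both of the response complex, were lower by 2.25 and 2.04 on the log2 scale in WT, and Irf1, the factor most tied to interferon gamma, by 0.88.

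The Ifit genes encode proteins that bind foreign RNA, and the Oas genes enzymes that make an activator of RNase L. Ifit3 showed the largest difference of all members in WT: 29.2, 25.9 and 31.1 CPM in WT mTEChi, against 367, 341 and 393 CPM in WT mTEClo. Its log2 fold change was -3.67 (SE 0.08, adjusted p = 3.22e-12), a 12.8-fold lower level. In KO it had 30.2, 35.7 and 34.2 CPM in mTEChi, against 363, 426 and 409 CPM in mTEClo, and its log2 fold change was -3.56 (SE 0.10, adjusted p = 1.35e-09). Its neighbour Ifit1 differed much less, with 121, 130.1 and 115 CPM in WT mTEChi against 225, 224 and 259.6 CPM in WT mTEClo (log2 fold change -0.95, SE 0.07). Ifit genes, which lie side by side on chromosome 19, thus differed among themselves, from Ifit1 over Ifit2 at -1.51 to Ifit3.

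Within the Oas family the spread was wider still and ran through 0. Oas2 had 11.9, 10.6 and 11.4 CPM in WT mTEChi, against 128, 124 and 123 CPM in WT mTEClo, with no overlap. Its log2 fold change was -3.55 in KO (SE 0.13, adjusted p = 4.40e-09) and -3.46 in WT (SE 0.07, adjusted p = 1.52e-12). Oas3, Oas1a and Oasl2 were lower by 1.98, 1.69 and 1.42 on the log2 scale in WT. Oasl1, which in mouse is known to hold back translation of Irf7, went the other way: it had 64.1, 71.4 and 68.1 CPM in KO mTEChi, against 51.8, 41.4 and 57.1 CPM in KO mTEClo, and 62.7, 66.2 and 75.3 CPM in WT mTEChi, against 50.8, 48.9 and 49.3 CPM in WT mTEClo. The groups did not overlap in either genotype, and the log2 fold change was 0.46 in both (SE 0.11, adjusted p = 0.00330 in KO; SE 0.07, adjusted p = 7.76e-05 in WT).

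Isg15, a ubiquitin-like modifier, was lower by 2.63 on the log2 scale in WT mTEChi, while Usp18, the protease that removes it and that also restrains the type I receptor, was not called different between the fractions. Usp18 had 282, 278 and 282 CPM in KO mTEChi, against 287, 266 and 278 CPM in KO mTEClo. In WT it had 264, 279.5 and 279.9 CPM in mTEChi, against 256, 264 and 261 CPM in mTEClo. The log2 fold change was 0.04 in KO and 0.08 in WT and did not pass (adjusted p = 0.176 in WT); it did pass, with the same sign, in WT when the libraries were scaled by DESeq2's size factors and in DESeq2's own test. The ubiquitin ligases Trim25 and Trim30a were also lower, Trim30a by 1.65. Oasl1 and Usp18 were the only members not lower in mTEChi in either genotype, and whether their roles bear on this was not tested.

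**Figure D3:**
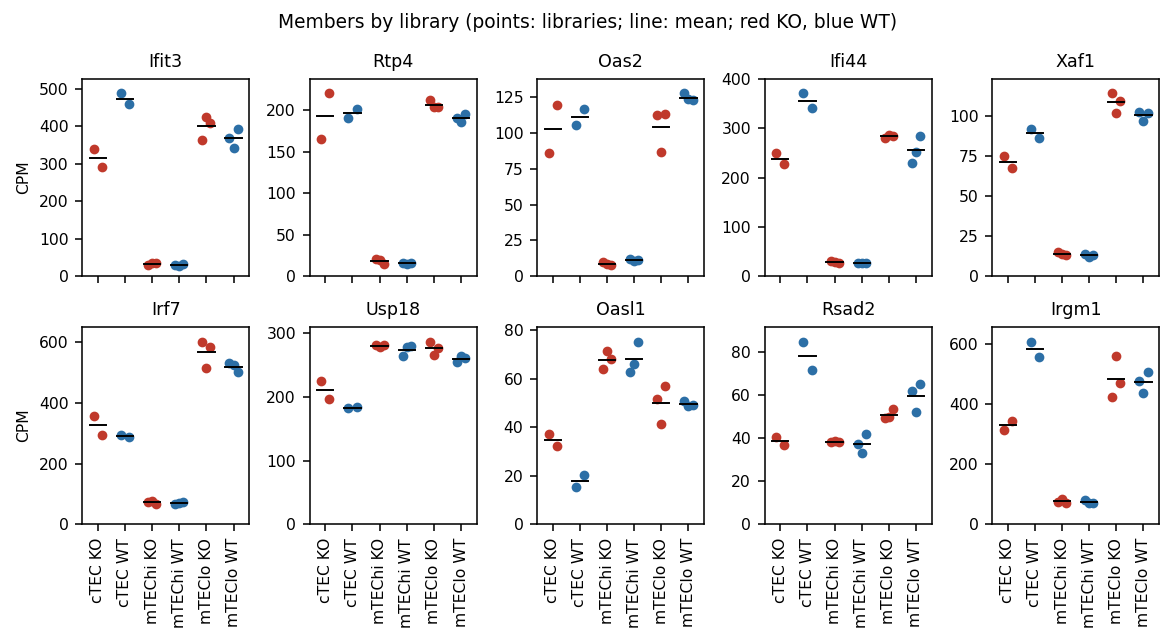
CPM in every library for 10 of the genes, with points for libraries, a line for the mean of each group, red for KO and blue for WT. The 6 mTEChi points lie below all others for Ifit3, Rtp4, Oas2, Ifi44, Xaf1, Irf7 and Irgm1, but above all others for Oasl1, and Rsad2 and Irgm1 are lower in both KO cTEC libraries than in both WT cTEC libraries.

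The sensors of foreign nucleic acid were all 5 lower in WT mTEChi, from Ddx58 (RIG-I), by 2.73 on the log2 scale, to Ifih1 (MDA5), by 0.92. All 8 GTPases were lower too, from Mx2, by 2.71, and the immunity-related Irgm1, by 2.65, to Igtp, by 0.58. Among the membrane and nucleotide effectors Rtp4 had 20.2, 19.1 and 14.6 CPM in KO mTEChi, against 213, 203 and 204 CPM in KO mTEClo. In WT it had 15.9, 15.1 and 16.2 CPM in mTEChi, against 191, 185 and 196 CPM in mTEClo. The groups were far apart in both genotypes, and the log2 fold change was -3.51 in KO (SE 0.12, adjusted p = 3.64e-09) and -3.59 in WT (SE 0.06, adjusted p = 8.28e-13). Bst2 (tetherin, which holds budding virus at the membrane) was lower by 1.77 in WT, and Rsad2 (viperin) by 0.67, the smallest difference of these effectors. Ifi44 and Xaf1 complete the 6 members with the largest differences, at -3.29 (SE 0.07, adjusted p = 5.01e-10) and -2.93 (SE 0.08, adjusted p = 1.53e-09) in KO and -3.24 (SE 0.08, adjusted p = 5.94e-12) and -2.95 (SE 0.07, adjusted p = 4.06e-12) in WT.

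The interferons themselves ran the other way. Summed over the 19 interferon genes of the table, KO mTEChi held 9.28 to 10.4 CPM and WT mTEChi 8.18 to 9.27 CPM, whereas no cTEC or mTEClo library exceeded 0.937 CPM. Ifnb1 had 2.45, 2.59 and 2.04 CPM in KO mTEChi, against 0, 0.0601 and 0.0894 CPM in KO mTEClo, and 1.73, 1.38 and 1.69 CPM in WT mTEChi, against 0 counts in all 3 WT mTEClo libraries. Ifnl2 had 2.31, 2.53 and 2.02 CPM in WT mTEChi, against 0.0570, 0.0849 and 0.0764 CPM in WT mTEClo. Ifng had 1.62, 2.89 and 2.06 CPM in WT mTEChi, against 0.0456, 0.0212 and 0 CPM in WT mTEClo. Of the 19 genes 7 passed the low-count filter in KO and 5 in WT, through their mTEChi libraries, so that their direction was set by the filter. Ifnl2 and Ifnl3 are near-identical copies, so their reads cannot be parted with certainty.

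Of 25 receptor and signalling genes 8 were higher and 12 lower in KO mTEChi, and 8 higher and 14 lower in WT mTEChi, where all genes were called higher in 42.1% and lower in 36.2% in KO, and higher in 42.9% and lower in 37.9% in WT. Within each receptor pair the chains differed by unequal amounts. Ifnar2 had 30.8, 30.1 and 34.4 CPM in WT mTEChi, against 84.5, 82.8 and 81.8 CPM in WT mTEClo, while Ifnar1 was lower by only 0.19 on the log2 scale (SE 0.05). Ifnlr1, the specific chain for interferon lambda, had 5.28, 4.52 and 5.13 CPM in WT mTEChi, against 48.6, 41.8 and 38.7 CPM in WT mTEClo (log2 fold change -3.11, SE 0.11, adjusted p = 6.99e-11), and its partner Il10rb was lower by 0.58 (SE 0.05). Ifngr1 was lower by 1.87 (SE 0.05) and Ifngr2 higher by 0.47 (SE 0.06). The sensor Tlr9 and the factors Irf5 and Irf8, by contrast, were higher in WT mTEChi by 5.87, 2.68 and 1.89 on the log2 scale.

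**Figure D4:**
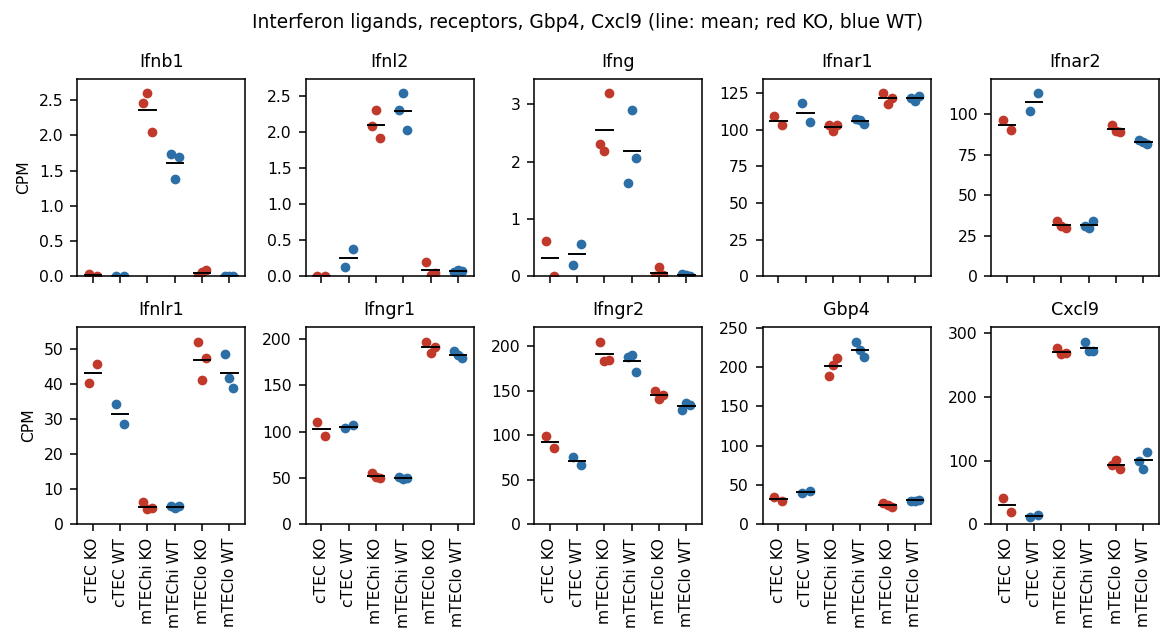
CPM in every library for 3 interferons, 5 receptor chains and the induced genes Gbp4 and Cxcl9, with a line for each group's mean, red for KO and blue for WT. Ifnb1, Ifnl2, Ifng, Gbp4 and Cxcl9 are highest in mTEChi, as is Ifngr2, whereas Ifnar2, Ifnlr1 and Ifngr1 are lowest there.

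A second list of 51 interferon-induced genes outside the 39 was more mixed: 13 were higher and 34 lower in mTEChi in each genotype, with a median log2 fold change of -1.08 in KO and -0.95 in WT, against medians of 0.077 and 0.056 over all genes and the shares of all genes called that were just given. Slfn8, at -3.27, and Irgm2, at -2.28 in WT, were lower too. Gbp4, an immunity GTPase of the same family as Gbp2 and Gbp3, had 233, 222 and 213 CPM in WT mTEChi, against 30.2, 29.6 and 31.5 CPM in WT mTEClo (log2 fold change 2.87, SE 0.06, adjusted p = 2.29e-12). Among the 13 higher genes were also Ciita, the master regulator of MHC class II, the chemokines Cxcl9 and Cxcl11, and the proteasome genes Psmb10, Psme1 and Psme2. Markers of other cells were mixed. In mTEChi 5 macrophage genes, Lyz2 the main one, summed to 478 to 494 CPM in KO and 474 to 493 CPM in WT. In mTEClo they summed to 34.4 to 60.6 CPM in KO and 46.0 to 49.3 CPM in WT. Fibroblast and pericyte markers were lower in mTEChi, at 215 to 237 CPM in KO and 214 to 242 CPM in WT. In mTEClo they summed to 312 to 393 CPM in KO and 260 to 316 CPM in WT. The leukocyte gene Ptprc was at 11.7 to 27.7 CPM in KO and 13.3 to 25.8 CPM in WT mTEChi, against 18.2 to 30.3 CPM in KO mTEClo and 25.9 to 28.7 CPM in WT mTEClo. Summed over 7 genes used as plasmacytoid dendritic cell markers, mTEChi held 546 to 586 CPM in KO and 549 to 606 CPM in WT, against 298 to 335 CPM in KO mTEClo and 320 to 334 CPM in WT mTEClo. Irf8 and Tlr9, given above as signalling genes, are among these 7. Bst2, also on that marker list, was left out of the sum because it is a member, and it ran the other way. Its mean was 62.4 CPM in KO mTEChi and 57.8 CPM in WT mTEChi, against 242 CPM in KO mTEClo and 197 CPM in WT mTEClo. Siglech, which defines plasmacytoid dendritic cells, stayed below 0.9 CPM in every library. The part of these markers in the interferon genes' differences was not tested.

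Between cTEC and mTEClo the members were split. In WT cTEC against WT mTEClo 9 members were higher and 9 lower, against 20.9% and 24% of all 17213 genes tested (44.9% in either direction), so the members were called about as often as other genes. Their median log2 fold change was -0.07. Ifit1 had 385 and 320.1 CPM in WT cTEC, against 225, 224 and 259.6 CPM in WT mTEClo (log2 fold change 0.65, SE 0.11, adjusted p = 0.00124). Gbp2 had 211 and 212 CPM in WT cTEC, against 149.9, 159.6 and 162 CPM in WT mTEClo (log2 fold change 0.50, SE 0.07, adjusted p = 0.000742). Ifi44, Rsad2, Samd9l and Ifit3 were higher in cTEC by 0.55, 0.46, 0.45 and 0.44 on the log2 scale (adjusted p = 0.00297, 0.0107, 0.00603 and 0.00385), and Irgm1, Iigp1 and Eif2ak2 by less. Oasl1 was the member with the largest difference, with 15.6 and 20.3 CPM in WT cTEC, against 50.8, 48.9 and 49.3 CPM in WT mTEClo (log2 fold change -1.39, SE 0.13, adjusted p = 3.94e-05). Zbp1, a sensor of Z-form nucleic acid, had 88.3 and 86.1 CPM in WT cTEC, against 172, 164 and 163 CPM in WT mTEClo (log2 fold change -0.86, SE 0.07, adjusted p = 1.72e-05). Irf7 had 294 and 289 CPM in WT cTEC, against 531, 526 and 501 CPM in WT mTEClo (log2 fold change -0.76, SE 0.07, adjusted p = 3.82e-05). Oas3, Oas1a and Usp18 followed at -0.78, -0.54 and -0.43, and Dhx58, Mx1 and Stat2 were lower by less. The other 21 members did not pass, so these populations cannot be put in order for them.

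Against WT mTEChi, 37 members were higher in WT cTEC and 2, Oasl1 and Usp18, lower (30.8% and 43.4% of all 19634 genes), with a median log2 fold change of 1.67 over the members and -0.244 over all genes. The 2 cTEC and 3 mTEChi libraries did not overlap for any of the 39, with cTEC above for 37 and below for 2, against 35.4% and 49.4% of all genes. Ifit3 had 487 and 458 CPM in WT cTEC, against 29.2, 25.9 and 31.1 CPM in WT mTEChi (log2 fold change 4.04, SE 0.10, adjusted p = 5.45e-07). Ifi44, Rtp4, Oas2, Irgm1 and Xaf1 followed with 3.73, 3.64, 3.30, 2.96 and 2.78. Oasl1 and Usp18 were lower by 1.92 (SE 0.15) and 0.58 (SE 0.07). By group means alone, which also order members that did not pass a test, the highest WT population was mTEClo for 23 members, cTEC for 14 and mTEChi for 2, and the lowest was mTEChi for 37 and cTEC for 2. In KO mice the highest was mTEClo for 36 members, cTEC for 1 and mTEChi for 2. Fibroblast and pericyte markers (5 genes) summed to 924 to 1147 CPM in WT cTEC, against 214 to 242 CPM in WT mTEChi and 260 to 316 CPM in WT mTEClo, and their part in the members' values was not tested. This comparison and the one with mTEClo share the WT cTEC libraries, and each shares its medullary libraries with the contrast of mTEChi and mTEClo.

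With edgeR none of these genes was called changed by loss of Psmb11 in either medullary fraction. In mTEChi 0 of 39 members passed in KO against WT, where 0.0051% of all 19614 genes did (1 gene, by edgeR's quasi-likelihood test). At an unadjusted p under 0.05 there were 5 members, against 829 of all genes. DESeq2 and limma's voom also called 0 members. The log2 fold changes ran from -0.36 to 0.21, and no member's 95% interval went beyond -0.60 or 0.41. Oas2 had the smallest p: 9.85, 8.47 and 8.13 CPM in KO, against 11.9, 10.6 and 11.4 CPM in WT (log2 fold change -0.36, SE 0.11, adjusted p = 1.00). Samd9l and Ifit3 came next at -0.20 (SE 0.08) and 0.21 (SE 0.09). KO libraries all above the WT ones were seen for 1 member and all below for 4, against 4.53% and 4.41% of all genes.

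In mTEClo 0 of 39 members passed, where 0.00586% of 17073 genes did (1 gene). At an unadjusted p under 0.05 there were 7 members, against 2131 of all genes; voom called 0 and DESeq2 called 1, Bst2, with 0.535% of all genes higher and 1.55% lower. Bst2 had 233, 248 and 245 CPM in KO mTEClo, against 198, 192 and 203 CPM in WT mTEClo, without overlap. Its log2 fold change was 0.28 (SE 0.07, adjusted p = 0.201 with edgeR and 0.0159 with DESeq2). Oas2 and Parp14, an ADP-ribosyltransferase, were next at -0.27 (SE 0.09) and -0.21 (SE 0.08). The fold changes of all members lay between -0.27 and 0.28, with intervals inside -0.47 and 0.47. KO and WT did not overlap for 7 members with KO above and 3 with KO below, against 11.5% and 7.88% of all genes. No member passed the interaction test of whether the KO effect differed between mTEChi and mTEClo (0 of 39, against 0.0101% of 19816 genes; 1 member and 1026 genes at an unadjusted p under 0.05; 0 members with DESeq2 and with voom). Rsad2 had the largest difference of effects among the 3 smallest p, 0.28 (SE 0.13, adjusted p = 0.950).

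Cortical cells are where Psmb11 is normally expressed, and there the members' levels lay mostly below WT, but none passed with edgeR. In KO cTEC against WT cTEC 0 of 39 members and 0% of 16423 genes passed with edgeR, with 13 members and 2129 genes at an unadjusted p under 0.05. Psmb11 itself, at a log2 fold change of -7.19 (SE 1.28), did not pass either (adjusted p = 0.125), with 157 and 0 counts in the 2 KO libraries that stood apart. The members' median log2 fold change was -0.27, against 0.007 over all genes, and 30 of the 39 values were below 0. Both KO libraries lay below both WT libraries for 22 members and above for 6, against 24.2% and 21% of all genes.

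Rsad2, viperin, had the smallest p, with 40.3 and 36.8 CPM in KO cTEC, against 84.7 and 71.6 CPM in WT cTEC (log2 fold change -0.999, SE 0.16, adjusted p = 0.0748). Both KO cTEC values lay near those of mTEChi, which had 38.4 ± 0.403 CPM in KO and 37.3 ± 4.58 CPM in WT (SD, n = 3 each). This was not so for Irgm1 and Ifi44, given next, at means of 76.2 and 28.8 CPM in KO mTEChi. Irgm1 had 315 and 346 CPM in KO cTEC, against 609 and 558 CPM in WT cTEC (log2 fold change -0.80, SE 0.13, adjusted p = 0.0748). Ifi44 had 250.1 and 228 CPM in KO cTEC, against 371 and 342 CPM in WT cTEC (log2 fold change -0.56, SE 0.12, adjusted p = 0.130). Of the GTPases 7 of 8 values were below 0, of the nucleic acid sensors 4 of 5, and of the transcription factors 1 of 4, Irf1 at -0.56 (SE 0.13). Oasl1 ran the other way with 37.0 and 32.1 CPM in KO cTEC, against 15.6 and 20.3 CPM in WT cTEC (log2 fold change 0.96, SE 0.25, adjusted p = 0.199).

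**Figure D5:**
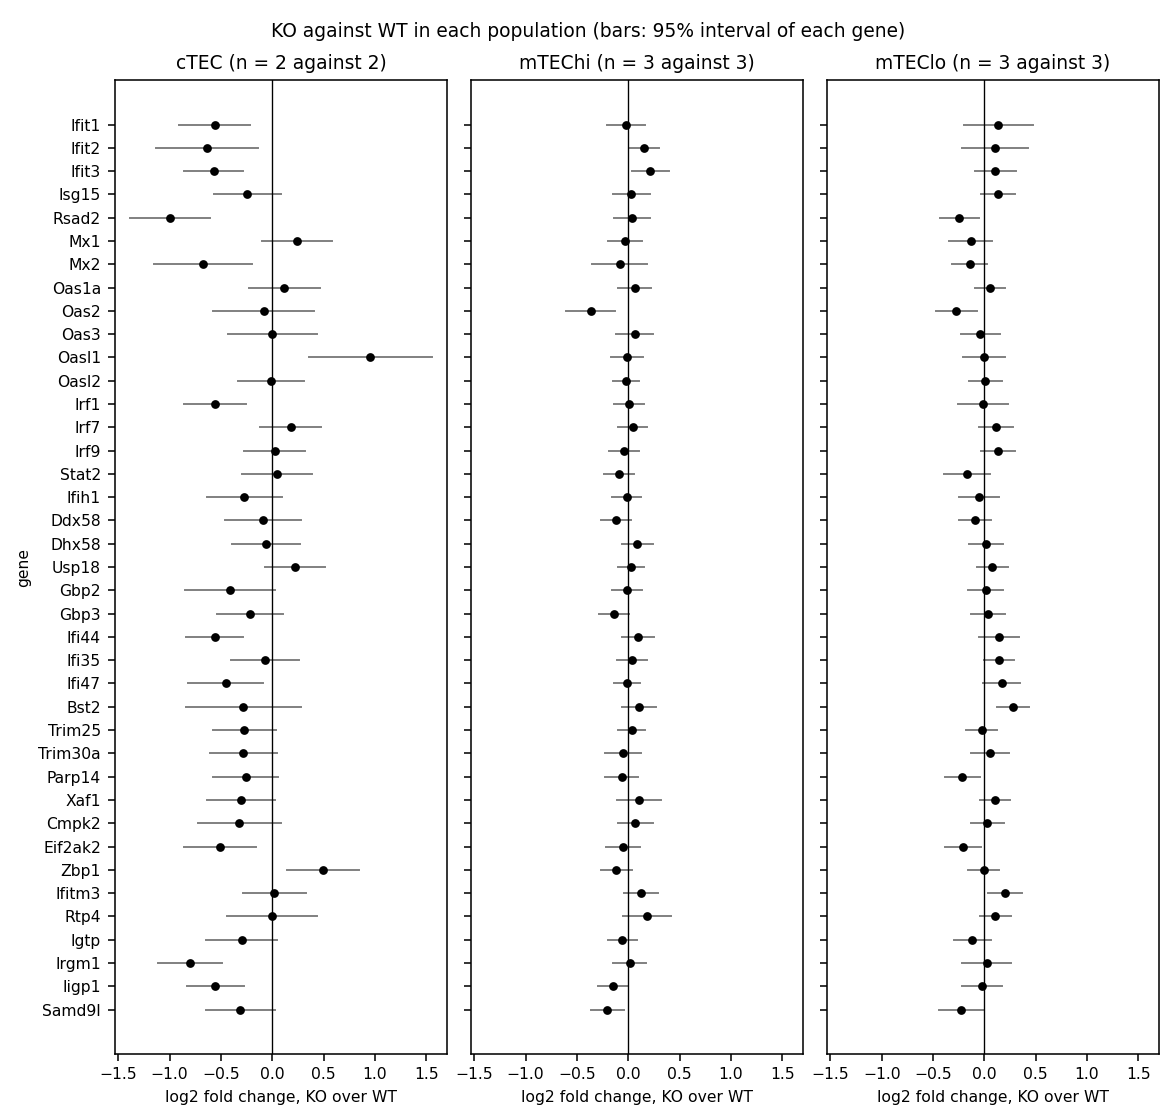
Log2 fold changes of KO over WT for the 39 genes in cTEC (2 against 2 libraries), mTEChi and mTEClo (3 against 3 each), with bars for each gene's 95% interval. In cTEC 30 of 39 points are below 0 and the intervals are wide, whereas the medullary points lie between -0.36 and 0.28.

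Calls in cTEC rested on the test and the libraries: DESeq2 called 1 member higher and 7 lower, where it called 3.29% of all genes higher and 1.89% lower. The edgeR fit with the spread of all 16 libraries called 3 higher and 15 lower, against 13.1% and 10.2% of all genes. Earlier results of these data showed that such a shared spread calls many cTEC genes where no effect was simulated. The cTEC libraries vary several times more than the medullary ones, so the calls of that fit are not reliable here. The voom fit with a weight per library called 0 members, against 1.11% and 0.0397% of all genes. Without KO 1, edgeR called 2 higher and 10 lower, against 8.8% and 12.4% of all genes. Without KO 2 it called 1 higher and 8 lower, against 4.55% and 2.19%. Without WT 1 it called none, against 0.763% and 0.0745%, and without WT 2 only Irgm1, lower, against 0.744% and 0.126%. Medullary genes were higher in KO cTEC without a call: Aire had 107 and 44.2 CPM in KO cTEC, against 13.7 and 10.6 CPM in WT cTEC, and Spib 185 and 106 CPM in KO cTEC, against 47.1 and 44.5 CPM in WT cTEC. Summed over 13 medullary markers KO cTEC held 7336 to 7481 CPM and WT cTEC 6428 to 6770 CPM, and over 9 cortical markers 1969 to 2833 CPM in KO and 3478 to 4151 CPM in WT. Their part in the members' values was not tested, nor was the difference between the cTEC effect and the medullary ones. In the wider list of 51 genes 0 passed in KO against WT cTEC, with a median of -0.08; the chemokine Cxcl10, at 364 and 363 CPM in KO cTEC against 674 and 591 CPM in WT cTEC, had the smallest p (log2 fold change -0.78, SE 0.12, adjusted p = 0.0708).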

How the data were processed

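RNA was sequenced from sorted thymic epithelium. Raw read counts per gene and RPKM were deposited by the authors for 16 libraries; CASAVA 1.8.2, HTSeq 0.5.4p1 and the mm10 build are named in the submitters' processing notes, and the aligner is not given in the sources used here. The library kit does not mark strand, so overlapping and antisense genes, and near-identical copies such as Oas1a with Oas1g, are less certain. The deposited RPKM values were used only for levels between genes; they were proportional to the counts within 5% for 71.5% of 12214 genes with at least 100 counts in every library. Counts of the groups compared were tested with edgeR 4.0.16 in R 4.3.3 (quasi-likelihood F test, TMM, filterByExpr), adjusted over all genes tested at a threshold of 0.05, with SE taken from the F statistic and 95% intervals. A fit holds only the libraries it compares. Rows that name no gene (reads in no gene or ambiguous) stayed out of totals and tests. The largest 6 members per direction past the threshold without overlap, or else the 3 smallest p, are named with their values; the other lists are given by counts with up to 4 smallest p, and further genes named from them, and members given as the ends or examples of their role group, were chosen after their values were seen. Members, lists and tests were chosen with earlier results of these data known. DESeq2 1.42.0 and limma 3.58.1 (voom) served as alternatives. One signalling gene is not reported here. Scripts were tested on simulated data. Promoters are from RefSeq (GRCm38.p6). Counting error alone gives a floor of 3 counts; PCR copies are not independent molecules.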

Additional observations from a re-analysis of the deposited data

Results flagged for a closer look

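For 2 members KO and WT did not overlap in opposite directions in 2 populations. The share of all genes that did so was not computed. Taken singly, KO lay above WT for 21% of all genes in cTEC and below for 24.2%. These shares were 4.53% and 4.41% in mTEChi, and 11.5% and 7.88% in mTEClo. Ifit2 was lower in both KO cTEC libraries, 51.2 and 68.5 CPM, than in both WT cTEC libraries, 106 and 83.9 CPM (log2 fold change -0.635), but higher in KO mTEChi, 42.0, 46.5 and 42.7 CPM, than in WT mTEChi, where all 3 libraries were at 39.2 CPM (log2 fold change 0.15). Ifi47, an immunity-related GTPase, was at 199 and 144 CPM in KO cTEC, against 238 and 234 CPM in WT cTEC (log2 fold change -0.453), and at 246.3, 279.9 and 262 CPM in KO mTEClo, against 226, 224 and 245.97 CPM in WT mTEClo (log2 fold change 0.17). None of the 4 effects passed with edgeR on the libraries compared. The edgeR fit of all 16 libraries called both genes in cTEC, where its shared spread gives false calls. The replicate block called Ifit2 in cTEC. The difference between populations was not tested for either gene.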

How the results depend on the processing

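No member named by rule in a contrast changed direction or lost its call there. Direction was not checked for other members given with library values, such as Usp18 between mTEChi and mTEClo. Mx1, Stat2, Iigp1 and Eif2ak2 each lost their call between WT cTEC and WT mTEClo under at least 1 alternative. Between cTEC and mTEClo in WT, 7 to 10 members were higher and 7 to 8 lower when one mTEClo library was left out. Of all genes 15.7% to 19.3% were higher and 17.6% to 19.6% lower in these fits. Usp18 was added to the calls. In WT, 2 members were higher in mTEChi than in mTEClo with DESeq2's size factors (44.6% of all genes). The same 2 passed with DESeq2's Wald test (44.3%). KO against WT in mTEClo gave 1 member higher with DESeq2's test. KO against WT in cTEC depended on the setting. Without the low-count filter 5 members were lower (0.489% of all genes), and with DESeq2 1 was higher and 7 lower (3.29% and 1.89%). With the edgeR fit of all 16 libraries, whose shared spread gives false calls in cTEC, 3 were higher and 15 lower (13.1% and 10.2%). Leaving out one cTEC library at a time gave 0 to 2 higher and 0 to 10 lower; where 1 library was left in a group, it was assumed to vary like the other group. The cause was not tested. Library numbers recur in all groups and were not taken as pairs: correlations of the deviations of same-numbered libraries ran from -0.183 to 0.236, and in no comparison were all over 0.1. In the contrast of KO mTEChi and KO mTEClo all 6 libraries correlated best with their own number, a hint from the data and not from the design, whereas 0 of 6 did in WT. With the replicate number as a block 8 members were lower in KO cTEC (1.73% of all genes) and 0 higher (2.67%). In either medullary fraction 0 passed in KO against WT. Between mTEChi and mTEClo 37 were lower and 1 higher in each genotype. Of all genes 36.3% were lower and 41.6% higher in KO, and 36.1% and 41.2% in WT. Precision was lowest in cTEC, where the 2 KO libraries stood apart.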
